A study of Mus musculus with 8 samples.

Results

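The genes of glycolysis, pyruvate metabolism and the citric acid cycle were examined in the striatum of R6/2 mice, a transgenic model of Huntington's disease. The set was a fixed list of 43 gene symbols. Of these, 40 had a probe set that the platform annotation gives to that gene alone, out of 18193 such genes on the array, and for each gene the brightest such probe set was used. The probe sets that carry the Gapdh symbol are shared with pseudogenes or are array controls, so Gapdh was not analysed as a gene, and Gpi1 and Eno1 were not analysed here. Of the 40 genes only Hk2 was dim, with means below the brightest of 13 probe sets for Y-linked genes (5.37), which have no template in female mice.

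Total RNA was measured on 1 array per mouse in 4 R6/2 mice and 4 wild-type mice, all labelled female, aged 12 weeks (85 days) and of a C57Bl/6 and CBA strain background. The R6/2 transgene holds the 5′ end of human HTT, including a long CAG repeat, and is driven by the human HTT promoter, so it is not limited to one cell type. It is 1 transgenic line, so the comparison is between that line and its wild-type controls at 1 age. The labels number the R6/2 mice 64, 65, 70 and 78 and the wild-type mice 42, 48, 54 and 63. Tissue was whole striatum, in which fewer cells of a type and less RNA per cell cannot be told apart.

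Glycolysis splits glucose into pyruvate in the cytosol and yields ATP and NADH on the way. Pyruvate then becomes lactate, oxaloacetate or, through the pyruvate dehydrogenase complex of the mitochondrial matrix, acetyl-CoA, which citrate synthase feeds into the citric acid cycle. The complex is switched off when its kinases (the Pdk enzymes) phosphorylate it and switched on again by its phosphatases (Pdp1 and Pdp2). In brain, neurons draw on this route for most of their ATP, and the cycle also supplies the carbon of glutamate and GABA. A lower use of glucose by the striatum is a known feature of human Huntington's disease.

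In R6/2 striatum, 7 of the 40 genes had higher transcript levels at an adjusted p below 0.05 and none had lower levels. These 7 are 17.5% of the 40, and 15.3% of all genes passed in either direction. Of the 7, 4 belong to the pyruvate dehydrogenase complex or its kinases, 2 of 4 measured genes in each. Of all genes, 9.09% were higher by the same test. Pdk1, a kinase of pyruvate dehydrogenase, was 1.49-fold higher, Dld, the dihydrolipoamide dehydrogenase subunit of the complex, 1.45-fold higher, and Idh3a, the catalytic subunit of the NAD-dependent isocitrate dehydrogenase, 1.43-fold higher. Pdk3, Pdha1, Pkm and Pgk1 rose by smaller amounts, between 1.17-fold and 1.24-fold. The genes of glucose uptake, the hexokinases, the phosphofructokinases and the lactate dehydrogenases did not pass the test. A dimmer probe set of the phosphofructokinase gene Pfkp, not used for the gene, was lower when all probe sets were tested. Of 57 other measured genes of the pathway and its side branches, 7 rose and 5 fell.

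Values are log2 intensities, and a difference is R6/2 minus wild-type on that scale with its moderated standard error (SE). Calls rest on an adjusted p below 0.05, taken from limma with Benjamini-Hochberg adjustment over all genes. Called genes made up 17.5% of the 40, against 15.3% of all 18193 genes. All 7 were higher, and over all genes 9.09% were called higher and 6.19% lower. At an unadjusted p under 0.05, 13 of the 40 genes passed, and 0 of these 13 were lower. Among all 18193 genes, 5382 passed in that way, and 2241 of these were lower. The median difference of the 40 genes was 0.094, against -0.0034 over all genes. Of the 40 differences 28 were above 0 (70%, against 49.3% over all genes). Bright genes were called higher more often: of the brightest 60% of genes, which include 39 of the 40, 14.2% were called higher, with a median difference of 0.058. The groups of mice did not overlap, with R6/2 higher, for 9 of the 40 genes, against 11.7% of all genes. None of the 40 had all R6/2 mice below all wild-type mice, against 7.67% of all genes. The averages over the 40 genes, each taken against its wild-type mean, lay between 0.065 and 0.14 on the R6/2 arrays and between -0.011 and 0.016 on the wild-type arrays.

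**Figure D1:**
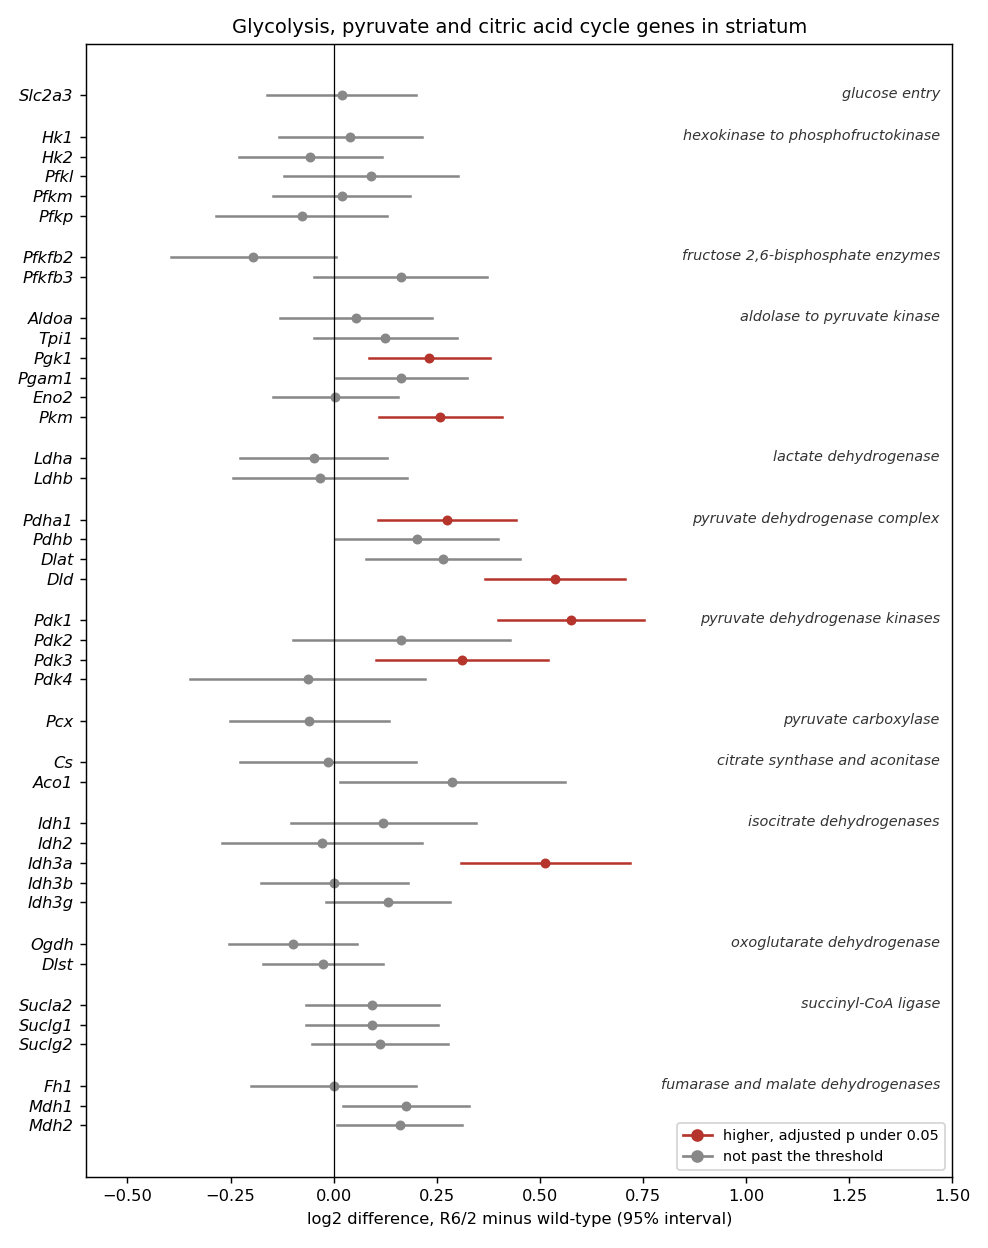
Log2 difference, R6/2 minus wild-type, of the 40 genes in order of their role, with 95% intervals from limma (n = 4 mice each). Red marks the 7 genes past an adjusted p of 0.05, with Pdk1, Dld and Idh3a farthest from 0.

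The calls differed in how firmly they stood. Pdk1, Dld and Idh3a stayed called in each of 17 other ways of processing the data, 8 of which left out 1 array. The calls of Pkm, Pdha1, Pgk1 and Pdk3 were each lost in 7 to 9 of the 17. The number of called genes was 3 without R6/2 mouse 64 or 78 or without wild-type mouse 42 or 48, and 4 without R6/2 mouse 70 or wild-type mouse 63. It was also 3 with a per-array score of cortical projection neuron genes as a covariate.

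**Figure D2:**
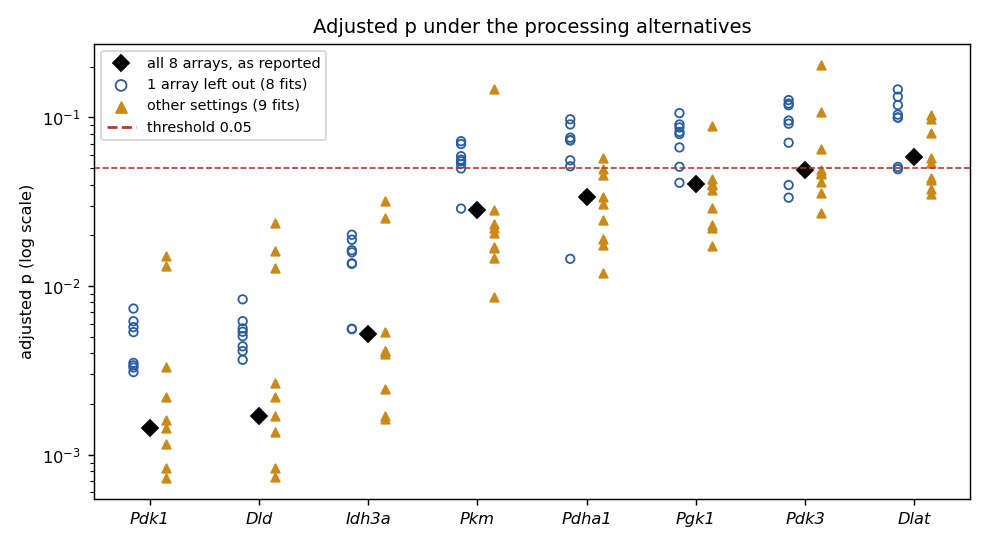
Adjusted p (log scale) of the 7 called genes and Dlat, with all 8 arrays (diamonds), with 1 array left out (circles, 8 fits) and under other settings (triangles, 9 fits). Pdk1, Dld and Idh3a lie under the dashed threshold of 0.05 in every fit shown.

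Several measures of the tissue and RNA also moved with genotype. Of 6 measured medium spiny neuron markers all 6 were lower, and their summed log2 values were 63.02 to 63.7 in R6/2 and 68.5 to 70.5 in wild-type mice. Of 6 pan-neuronal markers 1 was higher and 0 lower, with sums of 65.4 to 66.9 in R6/2 and 65.8 to 67.1 in wild-type mice. Of 7 cortical projection neuron markers 2 were lower, with sums of 42.3 to 50.5 in R6/2 and 45.4 to 54.9 in wild-type mice, and Neurod6 and Tbr1 were not above the level of the Y-linked probe sets. Of 6 astrocyte markers 2 were lower, with sums of 55.7 to 56.2 in R6/2 and 56.6 to 59.0 in wild-type mice. The Gapdh control probe sets are a measure of RNA integrity. They differed by 0.23 to 0.35 between the 3' and 5' ends in R6/2 mice and by 0.41 to 1.19 in wild-type mice. Mouse 42 had the largest gap, and without it the wild-type gaps, 0.41 to 0.52, still lay above those of R6/2 mice. For the Actb controls these gaps were 1.37 to 1.46 in R6/2 and 1.39 to 2.40 in wild-type mice, mouse 42 again the highest. Without mouse 42 the wild-type Actb gaps were 1.39 to 1.58 and overlapped those of R6/2 mice. Of 6 endothelial markers 3 were lower (sums of 38.5 to 39.5 in R6/2 and 40.4 to 41.5 in wild-type mice, Pecam1 and Cdh5 not above the Y-linked level), of 5 oligodendrocyte markers 1 was lower (51.3 to 52.7 in R6/2 and 52.0 to 54.1 in wild-type mice), and of 6 microglia markers none was called (48.5 to 49.7 in R6/2 and 48.7 to 50.4 in wild-type mice). Of 6 choroid plexus and ependyma markers 1 was higher, with overlapping sums of 37.3 to 51.5 in R6/2 and 35.8 to 48.3 in wild-type mice. The part of these measures in the results was not tested, apart from the fits without mouse 42 and with the cortical score.

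The regulatory sequence just upstream is shown for 3 of the called genes, namely the largest rises, Pdk1 and Dld, and Pgk1, whose window held 2 matches to a hypoxia motif, as did 1 window of Pkm. Pgk1 and Pdk1 are textbook targets of the hypoxia-inducible factor HIF. Each window runs from 250 bases before to 50 bases after an annotated start in RefSeq on GRCm38.p6, 5′ to 3′ on the gene's strand. The Pdk1 window is chr2:71872974-71873273 on the plus strand, the Dld window chr12:31351422-31351721 on the minus strand, and the Pgk1 window chrX:106186850-106187149 on the plus strand. Capitals mark the HIF core ACGTG or its reverse complement CACGT.
Pdk1: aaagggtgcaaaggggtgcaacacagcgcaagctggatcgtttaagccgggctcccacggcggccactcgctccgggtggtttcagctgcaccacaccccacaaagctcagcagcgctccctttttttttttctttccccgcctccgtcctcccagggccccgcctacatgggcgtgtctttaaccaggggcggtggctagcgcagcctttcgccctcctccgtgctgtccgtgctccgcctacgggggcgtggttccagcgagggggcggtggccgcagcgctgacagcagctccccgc
Dld: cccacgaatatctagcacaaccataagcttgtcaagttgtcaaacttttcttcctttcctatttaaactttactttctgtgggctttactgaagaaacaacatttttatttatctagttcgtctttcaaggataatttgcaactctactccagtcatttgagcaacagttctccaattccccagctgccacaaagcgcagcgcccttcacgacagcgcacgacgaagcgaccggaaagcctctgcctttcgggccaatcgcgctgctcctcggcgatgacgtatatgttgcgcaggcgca
Pgk1: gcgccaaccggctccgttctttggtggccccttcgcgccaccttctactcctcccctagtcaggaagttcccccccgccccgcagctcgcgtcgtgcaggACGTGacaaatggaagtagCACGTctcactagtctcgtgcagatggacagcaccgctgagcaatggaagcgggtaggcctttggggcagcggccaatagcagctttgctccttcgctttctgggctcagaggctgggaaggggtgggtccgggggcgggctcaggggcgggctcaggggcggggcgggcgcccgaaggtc

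The Pgk1 window held the HIF core 2 times, and the Pdk1 and Dld windows held none, nor did the other annotated Pdk1 start. On either strand, ACGTG occurred in 19.6% of all 32851 such windows. By gene, it occurred at a start of 17 of the 38 measured members with a window and of 21.8% of 27025 genes, and genes with more than 1 start have more windows to hold it. Among the 6 called members with a window, Pgk1, Pkm and Pdk3 held it. AAGGTCA, the core bound by the estrogen-related receptors, occurred in the windows of Tpi1 and Ogdh and of no called gene, against 5.38% of all genes. The cyclic AMP response element TGACGTCA occurred for Ldha, Ogdh and Mdh2, against 2.03% of all genes. These motifs share letters in part and are described as letters only.

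Entry of glucose and the upper steps of glycolysis held no called gene. Slc2a3, the neuronal glucose transporter GLUT3, differed by 0.020 ± 0.082 (SE), with a 95% interval of -0.16 to 0.20. Hk1, the main hexokinase of brain, which traps glucose as glucose 6-phosphate, was 10.45, 10.24, 10.36 and 10.36 in R6/2 mice and 10.39, 10.33, 10.17 and 10.36 in wild-type mice. The ranges overlapped, and the difference was 0.040 ± 0.078 (interval -0.13 to 0.21). A dimmer Hk1 probe set had a difference of 0.39 ± 0.14 (adjusted p = 0.106 over probe sets), with R6/2 mice at 8.58 to 9.04, wild-type mouse 42 at 8.06 and the other wild-type mice at 8.51 to 8.54. Hk2, the insulin-responsive hexokinase of muscle, averaged 4.90 ± 0.10 in R6/2 and 4.96 ± 0.082 in wild-type mice (SD, n = 4 each), and no fold is given at that level.

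Phosphofructokinase makes the committed step of glycolysis, and its muscle (Pfkm), liver (Pfkl) and platelet (Pfkp) isoforms form mixed tetramers in brain. Pfkm was 10.21, 10.03, 10.23 and 10.28 in R6/2 mice and 10.11, 10.17, 10.20 and 10.19 in wild-type mice, a difference of 0.019 ± 0.075 (interval -0.15 to 0.18). Pfkl differed by 0.091 ± 0.095 and Pfkp by -0.077 ± 0.094.

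The 3 probe sets of Pfkp disagreed. The brightest lay between 9.84 and 10.12 in R6/2 and between 10.004 and 10.31 in wild-type mice. The next read 6.32, 6.29, 6.45 and 6.55 in R6/2 mice and 7.23, 7.09, 7.03 and 7.35 in wild-type mice. Its groups did not overlap, and it fell by 0.77 ± 0.094 (adjusted p = 0.00140 over probe sets), the only probe set of the 95 for these genes that was called lower. The dimmest had a difference of 0.57 ± 0.22 (adjusted p = 0.143), with 5.43 in wild-type mouse 42 against 6.30 to 6.60 in the other wild-type mice. Which transcripts of Pfkp each probe set reads was not determined here.

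Pfkfb2 and Pfkfb3 are bifunctional enzymes that set the level of fructose 2,6-bisphosphate, the activator of phosphofructokinase. Pfkfb2 was 7.09, 7.38, 7.25 and 7.46 in R6/2 mice and 7.54, 7.58, 7.40 and 7.45 in wild-type mice. It had the most negative difference of the 40 genes, -0.19 ± 0.090 (adjusted p = 0.179), and the ranges overlapped at their edges. Pfkfb3 differed by 0.16 ± 0.095 (adjusted p = 0.292).

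In the lower part of glycolysis, Pgk1 and Pkm rose and 4 other genes did not pass. With glucose entry and lactate dehydrogenase, glycolysis had 16 measured genes, of which these 2 (12.5%) were called. Of all genes 15.3% were called, 9.09% higher, and of the brightest 60% of genes 14.2% were called higher. Pgk1 encodes phosphoglycerate kinase, the first ATP-making step. It was 11.38, 11.23, 11.28 and 11.32 in R6/2 mice and 11.04, 11.09, 11.04 and 11.10 in wild-type mice. All R6/2 values lay above all wild-type values, and the difference was 0.23 ± 0.066 (adjusted p = 0.0402). Its 2 other probe sets differed by 0.20 and 0.16 and were not called over probe sets (adjusted p = 0.0800 and 0.188), nor was the brightest (adjusted p = 0.0532).

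Pkm, which encodes pyruvate kinase, was 11.96, 11.96, 11.89 and 11.90 in R6/2 mice and 11.57, 11.67, 11.69 and 11.73 in wild-type mice. The groups were separate, with a difference of 0.26 ± 0.068 (adjusted p = 0.0282). Its single probe set does not separate the PKM1 and PKM2 splice forms here. The aldolase gene Aldoa (means of 12.14 in R6/2 and 12.09 in wild-type mice) differed by 0.055 ± 0.084. Aldoc, a brighter aldolase gene (12.27 and 12.60), is among the other pathway genes and fell. Eno2, the neuronal enolase, differed by 0.0042 ± 0.068 (interval -0.15 to 0.15). The triose phosphate isomerase gene Tpi1 (0.12 ± 0.078, adjusted p = 0.326) and the phosphoglycerate mutase gene Pgam1 (0.16 ± 0.072, adjusted p = 0.156) had positive differences that did not pass. The lactate dehydrogenase genes differed little, Ldha by -0.048 ± 0.080 and Ldhb by -0.032 ± 0.096. The 3 other probe sets of Ldhb had the opposite sign, 0.13, 0.13 and 0.23, with adjusted p from 0.0844 to 0.474 over probe sets.

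**Figure D3:**
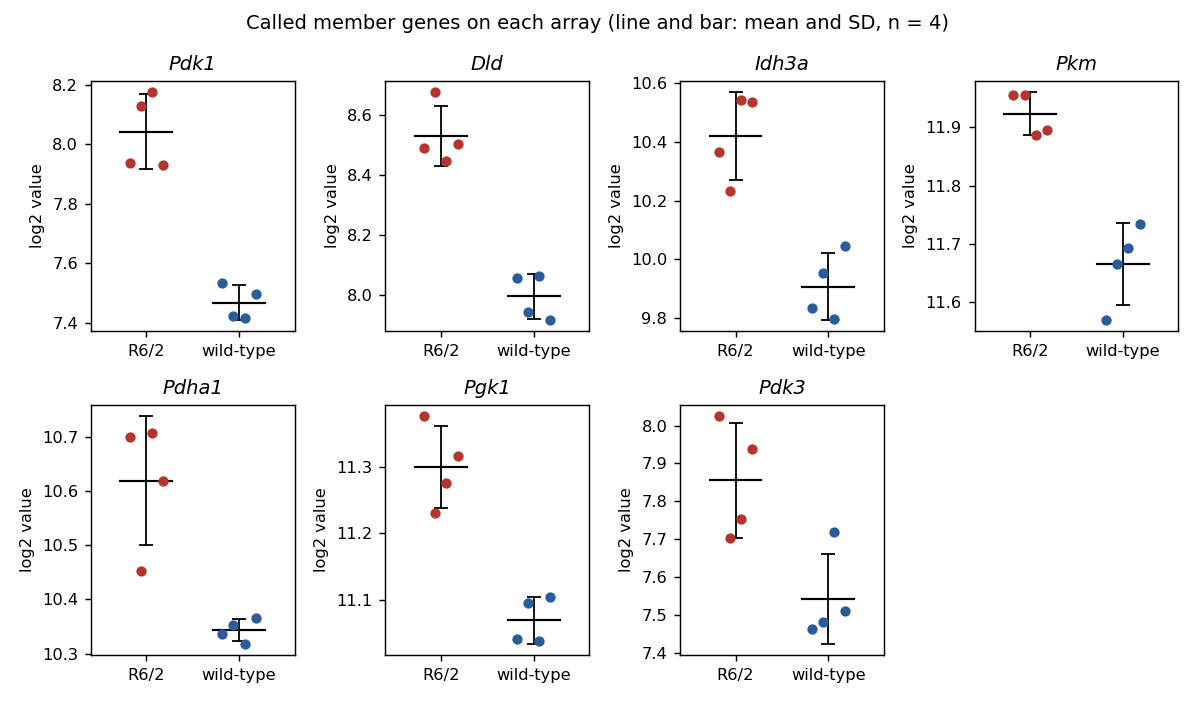
Log2 values of the 7 called genes on each array, R6/2 left and wild-type right in each panel, with mean and SD (n = 4). The groups are separate for all but Pdk3, where wild-type mouse 54 (7.72) lies above R6/2 mouse 65 (7.70), and each panel has its own vertical scale.

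The pyruvate dehydrogenase complex and its kinases held 4 of the 7 called genes, from 8 measured. Of all genes 9.09% were called higher, and of the brightest 60% of genes 14.2%. The calls of Pdha1 and Pdk3 were lost in 8 and 9 of the 17 alternatives. The complex joins 3 enzymes: the E1 dehydrogenase (Pdha1 and Pdhb), the E2 acetyltransferase (Dlat) and the E3 dehydrogenase (Dld). All 4 subunit genes had positive differences and an unadjusted p under 0.05 in limma, and 2 were called. Among all 18193 genes, 49.3% had positive differences. An unadjusted p under 0.05 was found for 5382 of them, 2241 of these lower. Dld was 8.49, 8.68, 8.45 and 8.51 in R6/2 mice and 8.06, 7.94, 8.06 and 7.92 in wild-type mice. The groups were far apart, with a difference of 0.54 ± 0.077 (adjusted p = 0.00171). E3 is also part of the oxoglutarate dehydrogenase and branched-chain complexes and of the glycine cleavage system. A second Dld probe set, with a mean of 3.27 that is below the Y-linked level of 5.37, was not called, and with the mean of both probe sets the Dld difference was 0.29 (adjusted p = 0.0162).

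Pdha1, which carries the sites that the kinases phosphorylate, was 10.70, 10.45, 10.71 and 10.62 in R6/2 mice and 10.34, 10.35, 10.32 and 10.37 in wild-type mice. The groups were separate, R6/2 mouse 65 being closest to the wild-type mice, and the difference was 0.28 ± 0.076 (adjusted p = 0.0338). The remaining probe set of Pdha1 had a difference of 0.61 ± 0.23 (adjusted p = 0.127 over probe sets), where wild-type mouse 42 was at 7.14 and the other wild-type mice at 8.12 to 8.37, against 8.30 to 8.65 in R6/2 mice. With the mean of both probe sets, the Pdha1 difference was 0.44 (adjusted p = 0.0457). Pdhb differed by 0.20 ± 0.089 (adjusted p = 0.160), and R6/2 mouse 65 (10.15) lay below the highest wild-type mice (10.22).

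Dlat stood just outside the threshold, at 8.58, 8.42, 8.25 and 8.37 in R6/2 mice and 8.11, 8.10, 8.10 and 8.25 in wild-type mice. Its difference was 0.26 ± 0.084 (adjusted p = 0.0585), and R6/2 mouse 70 and wild-type mouse 63 met at 8.25. It was called in 5 of the 17 alternatives, and its 2 other probe sets differed by 0.41 and 0.23 (adjusted p = 0.0502 and 0.133 over probe sets).

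Of the kinases, Pdk1 had the largest rise of all 40 genes. It was 7.94, 8.13, 8.18 and 7.93 in R6/2 mice and 7.53, 7.42, 7.42 and 7.498 in wild-type mice, with a gap of the groups and a difference of 0.58 ± 0.080 (adjusted p = 0.00145). Its other probe sets, at means of 7.26, 6.19 and 4.23, were not called over probe sets. The first 2 differed by 0.28 and 0.67 (adjusted p = 0.165 and 0.100), and the dimmest was not above the Y-linked level of 5.37. Pdk3 was 8.02, 7.70, 7.75 and 7.94 in R6/2 mice and 7.46, 7.48, 7.72 and 7.51 in wild-type mice. The groups overlapped through wild-type mouse 54, and the difference was 0.31 ± 0.094 (adjusted p = 0.0489, just under the threshold). Pdk2, the most widely expressed kinase, differed by 0.16 ± 0.12 (adjusted p = 0.399). Pdk4, which fasting and glucocorticoids induce, differed by -0.063 ± 0.13 (adjusted p = 0.790), and it varied more among R6/2 mice (SD 0.29) than among wild-type mice (SD 0.076).

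The counterpart of the kinases, the phosphatase gene Pdp1, is not among the 40 genes but belongs to the list of other pathway genes. It was 9.55, 9.77, 9.31 and 9.56 in R6/2 mice and 10.72, 10.29, 10.48 and 10.55 in wild-type mice. Every R6/2 value was lower, and it fell by 0.96 ± 0.12 (adjusted p = 0.000645), a 1.95-fold difference. A dimmer Pdp1 probe set was not used for the gene. Pdp2 and the regulatory subunit gene Pdpr were not called, nor was Pdhx, the E3-binding protein (0.29 ± 0.097, adjusted p = 0.0667), whose groups did not overlap. Pcx, pyruvate carboxylase, which makes oxaloacetate from pyruvate and is known as an astrocyte enzyme in brain, differed by -0.059 ± 0.088 (interval -0.25 to 0.13).

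**Figure D4:**
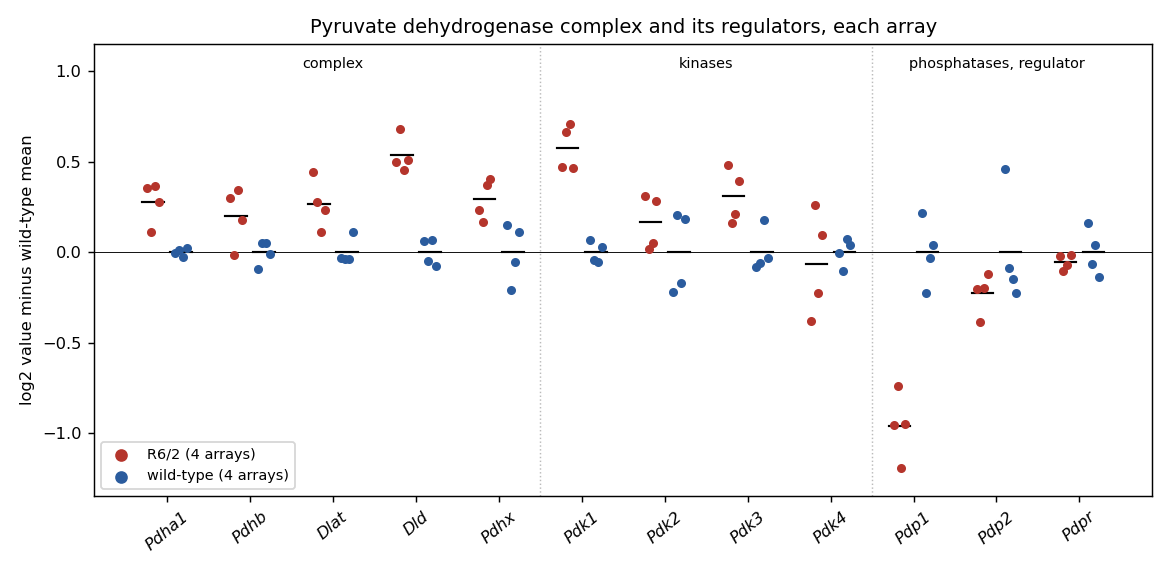
Log2 values minus the wild-type mean on each array for genes of the pyruvate dehydrogenase complex, its kinases and its phosphatases with their regulator, R6/2 (red) left of wild-type (blue), with group means as lines. Dld, Pdk1 and Pdp1 show the widest gaps between groups, Pdp1 in the opposite direction.

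Of the 15 genes listed here for the citric acid cycle, only Idh3a was called. That is 6.67%, against 9.09% of all genes called higher. The succinate dehydrogenase genes are on the list of other pathway genes, where Sdha was also called higher. Idh3a was 10.37, 10.23, 10.54 and 10.54 in R6/2 mice and 9.83, 9.95, 9.80 and 10.04 in wild-type mice. The groups were separate, with a difference of 0.51 ± 0.093 (adjusted p = 0.00523). Of its 4 probe sets, 3 were called higher, by 0.51, 0.49 and 0.41, and the fourth, with a mean of 5.21, was not above the Y-linked level and was not called. The partner subunits Idh3b and Idh3g, which regulate the same enzyme, differed by 0.00095 ± 0.081 (interval -0.18 to 0.18) and 0.13 ± 0.068 (interval -0.018 to 0.28). The difference between the subunits was not tested. The NADP-dependent enzymes of the cytosol, Idh1, and of mitochondria, Idh2, differed by 0.12 ± 0.10 and -0.029 ± 0.11.

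The entry of the cycle, citrate synthase (Cs), was 11.16, 10.78, 11.05 and 11.09 in R6/2 mice and 11.17, 10.90, 11.05 and 11.01 in wild-type mice. The groups overlapped throughout, with a difference of -0.014 ± 0.097 (interval -0.23 to 0.20), while 2 dimmer Cs probe sets differed by 0.17 and 0.34 (adjusted p = 0.194 and 0.187 over probe sets). Aco1, the cytosolic aconitase that also serves as iron regulatory protein, differed by 0.29 ± 0.12 (adjusted p = 0.147). The oxoglutarate dehydrogenase genes Ogdh (-0.099 ± 0.070) and Dlst (-0.026 ± 0.066) and the 3 succinyl-CoA ligase genes Sucla2, Suclg1 and Suclg2 (between 0.094 and 0.11) were not called. Fumarase (Fh1) differed by -0.00021 ± 0.090. The malate dehydrogenases of the cytosol, Mdh1 (0.17 ± 0.069, adjusted p = 0.117), and of mitochondria, Mdh2 (0.16 ± 0.069, adjusted p = 0.148), had groups that did not overlap but did not pass the test.

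**Figure D5:**
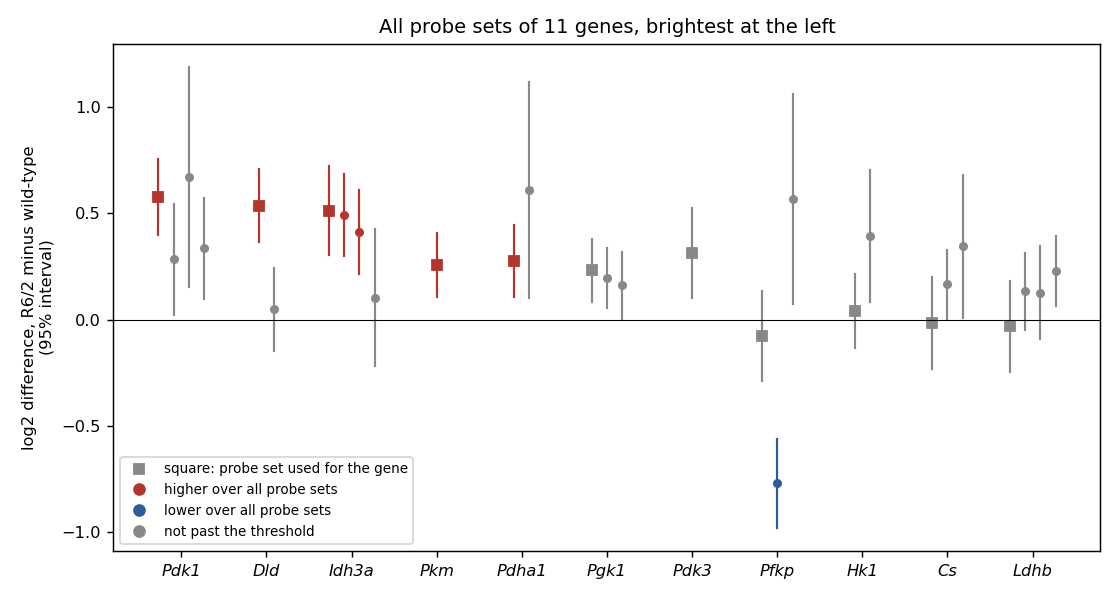
Log2 difference, R6/2 minus wild-type, with 95% intervals, of every probe set of 11 of the genes, brightest at the left of each gene. Squares are the probe sets used for the gene, and colours show calls over all probe sets, of which Pfkp alone has one called lower.

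Over all probe sets, 8 of the 95 for these genes were called, 7 higher and 1 lower, against 10.1% of all 45037 probe sets. Of the 55 probe sets not used for a gene, 19 had the sign opposite to the one used, and 16 of the 55 had means at or below the Y-linked level. Pgk1 and Pdk3 were called over genes but not over probe sets (adjusted p = 0.0532 and 0.0663).

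By the chromosome in RefSeq (GRCm38.p6), 4 of the 40 genes are X-linked, and 3 of these rose: Pgk1, Pdha1 and Pdk3. The remaining one, Idh3g, had groups that did not overlap and a difference of 0.13. Of the 36 genes on other chromosomes, 4 rose. Among all genes, 19.4% of 617 X-linked genes were called higher, against 8.78% of 17411 genes on other chromosomes, with median differences of 0.049 and -0.0044. The count of 3 X-linked genes was smaller in most fits with 1 array left out. It was 0 without R6/2 mouse 64, 70 or 78, 0 without wild-type mouse 42, 48 or 63, and 1 without wild-type mouse 54. In these fits the differences stayed at 0.21 to 0.25 for Pgk1, 0.25 to 0.33 for Pdha1 and 0.26 to 0.37 for Pdk3. With the cortical covariate the count was 0. The differences were then 0.28 ± 0.088, 0.35 ± 0.097 and 0.29 ± 0.13, with larger SEs than without it.

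Of 57 other measured genes of the pathway and its side branches, from 65 listed, 7 rose, 5 fell and 45 did not pass (21.1% called, against 15.3% of all genes). Besides Pdp1, the falls were of the cytosolic glycerol phosphate dehydrogenase Gpd1 (-0.93 ± 0.12, adjusted p = 0.00117), the muscle mutase Pgam2 (-0.86 ± 0.22, adjusted p = 0.0247), the astrocyte aldolase Aldoc (-0.32 ± 0.070, adjusted p = 0.0121) and Hkdc1 (-0.37 ± 0.097, adjusted p = 0.0282), whose means of 4.84 in R6/2 and 5.21 in wild-type mice lay below the Y-linked level. Pgam2 read 5.285 to 5.59 in R6/2 mice, near the Y-linked level of 5.37. Wild-type mouse 42 was at 7.08 and the other wild-type mice at 5.90 to 6.11. The Pgam2 call was lost in 5 of the 17 alternatives. Gpd1l, a relative of Gpd1, rose by 0.46 ± 0.093 (adjusted p = 0.00907). Of 16 other genes of the cycle and its shuttles, 4 rose: Sdha, the flavoprotein of succinate dehydrogenase (0.29 ± 0.081, adjusted p = 0.0342), the aspartate aminotransferase Got1 (0.47 ± 0.12, adjusted p = 0.0233), and the mitochondrial carriers Slc25a11 (0.34 ± 0.089, adjusted p = 0.0286) and Slc25a12 (0.26 ± 0.073, adjusted p = 0.0355). Their counterparts Got2 (0.090 ± 0.077, adjusted p = 0.481) and Slc25a13 (0.34 ± 0.16, adjusted p = 0.180) did not pass. With all probe sets of each gene averaged, Sdha (0.099, adjusted p = 0.314) and Slc25a12 (0.060, adjusted p = 0.577) were no longer called in limma, and Gpd1 was called at -0.44. In the pentose phosphate pathway, Pgd (0.36 ± 0.085, adjusted p = 0.0179) and Rpia (0.29 ± 0.073, adjusted p = 0.0250) rose. Of these 12 genes, Pdp1, Gpd1 and Gpd1l stayed called in all 17 alternatives, and 4 of the 57 genes were called once the cortical score entered as a covariate. None of 7 glycogen genes and none of 5 transporter genes was called by limma, with 2 and 0 of them at an unadjusted p under 0.05.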

How the data were processed

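Each of 8 striatal RNA samples, 4 R6/2 and 4 wild-type, went on its own Affymetrix array. The authors deposited log2 values per probe set, and the submitters' processing notes name RMA and affy. RMA corrects background, normalizes arrays together and pools the probes of a set, which compresses differences of dim genes. The number of arrays limits precision, and correlations between arrays were 0.983 to 0.994. A wild-type mouse that the design text counts beyond these (5 in all) was not used here.

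Of 45101 probe sets, 64 controls were left out. Of the rest, 34945 had 1 gene symbol, 932 had several, and 9160 without an annotation entry stay unnamed. The brightest probe set stood for each gene. Groups were compared with limma 3.58.1 in R 4.3.3 (lmFit, eBayes), and 95% intervals are from the same fit. Separate mice are the replicates. On simulated data, 7.88% of genes with a log2 change of 0.3, 55.5% with 0.5 and 95.0% with 1 were called in the right direction (200 changed genes of 18193, R6/2 against wild-type). In the real comparison 2781 genes were called, so the adjusted threshold was less strict there than with 200 changed genes. The simulated shares therefore do not measure how often real changes of these sizes were found. The members, gene lists and tests were chosen with earlier results of these data known. The text names every called gene of both lists and the other members by role. Motifs were searched on both strands. Figures were drawn with matplotlib 3.10.9.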

Additional observations from a re-analysis of the deposited data

Results flagged for a closer look

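Within a group of 4 mice, 1 value stood far from the other 3 in 2 of the 104 groups examined (52 genes in 2 genotypes), and chance gives about 1 in 20. Dlat in wild-type mouse 63 was 8.25, against 8.10 to 8.11 in the other wild-type mice. Aldoa in wild-type mouse 63 was 11.95, against 12.13 to 12.15 in the others. Without mouse 63, neither gene's call changed.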

How the results depend on the processing

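Other settings were quantile normalization, centred arrays, the dimmest genes left out, the mean of all probe sets, no _s_at or _x_at sets, a trend with robust variance, array weights, no moderation, the cortical covariate and each array left out. The 7 calls stayed positive in all, and no member was called lower. No paired analysis was possible because the groups share no mouse numbers. Genes called overall (2781) were 1399 without moderation, 1379 with the covariate and 1679 to 2545 with 1 array left out. Members called (7, all higher) were 3 with the covariate and 3 to 7 with 1 array left out. Other pathway genes called (12) were 6 without moderation, 4 with the covariate and 4 to 13 with 1 array left out (4 without R6/2 mouse 64, 6 without R6/2 mouse 70 or wild-type mouse 48). Members' probe sets called (8) were 5 to 7 with 1 array left out, and 5 without R6/2 mouse 64 or 78 or wild-type mouse 48. The members' median difference (0.094) was 0.13 with the covariate and 0.063 to 0.11 with 1 array left out. Quantile normalization and centring of probe sets were added after seeing the data. Among uncalled genes, signs turned for Idh3b (-0.013) and Fh1 (0.016) under quantile normalization, and Fh1 (0.012) with centred arrays. With the mean of probe sets they turned for Slc2a3 (-0.022), Ldhb (0.11), Cs (0.17), Idh3b (-0.018) and Mdh1 (-0.0055), and without _s_at or _x_at sets for Idh3b (-0.15). With array weights they turned for Slc2a3 (-0.010), Eno2 (-0.031), Cs (0.060) and Fh1 (0.070). With the covariate they turned for Pfkp (0.015), Eno2 (-0.019), Ldhb (0.0074), Pcx (0.067), Cs (0.086), Idh1 (-0.059), Dlst (0.020) and Fh1 (0.088). With 1 array left out, ranges spanned 0 for Slc2a3 (-0.032 to 0.050), Hk1 (-0.0080 to 0.079), Pfkm (-0.011 to 0.073), Eno2 (-0.022 to 0.037), Ldhb (-0.095 to 0.039), Pdk4 (-0.17 to 0.043), Cs (-0.060 to 0.066), Idh2 (-0.10 to 0.044), Idh3b (-0.039 to 0.055) and Fh1 (-0.043 to 0.072). The cause of these changes was not tested. Hk2 was not tested with dim genes left out, and Aldoa and Idh1 have no value without _s_at or _x_at sets.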
